A study of Mus musculus with 13 samples.

Results

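NF-kappaB is a family of dimeric transcription factors that links antigen receptors, costimulation and cytokine receptors to gene expression in lymphocytes. Its DNA-binding subunits are encoded by Nfkb1, Nfkb2, Rel, Rela and Relb. In resting cells most dimers are held inactive by inhibitor (IkB) proteins, which are degraded after the IkB kinase (IKK) complex is activated, and several inhibitor genes are themselves switched on by NF-kappaB, which closes a negative feedback loop. In T cells the pathway is used for survival, activation and the development of regulatory cells, and Rel and Rela are both known to contribute to Foxp3 expression.

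The transcripts of these 5 subunits and of 5 inhibitors, Nfkbia, Nfkbie, Nfkbid, Nfkbiz and Tnfaip3, were followed in sorted mouse splenic CD4 T cells. These 10 genes were taken by symbol from the 18649 genes of the deposited table, and all 10 passed the filter on low values that left 14177 genes for testing. PD1hi cells (3 libraries) were CD4+, high for the inhibitory receptor PD-1 on their surface and negative for a Foxp3 GFP reporter. Regulatory T cells (Treg, 5 libraries) were CD4+, positive for the reporter and negative for PD-1, and conventional T cells (Tconv, 5 libraries) were CD4+ and negative for both. The cells came from experiments numbered 3, 5 and 6, each with all 3 populations, and no treatment is given in the labels, nor a strain or an age. PD1hi has 1 library in each experiment, Treg has 2 in experiments 3 and 6, and Tconv has 2 in experiments 5 and 6. Levels are scaled counts, that is, the authors' size-factor scaled reads per gene. Means are given ± SD over 3 values per population, 1 per experiment (n = 3). Differences between populations are given ± SE on the log2 scale, as limma estimated them, and were called at a Benjamini-Hochberg adjusted p under 0.05 over all 14177 genes.

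The libraries held 15971126 to 24216463 reads in genes. The second Treg library of experiment 3 stood apart from its partner: the chi-square of their reads per degree of freedom, which is near 1 for sampling noise alone, was 73.5, against 7.77 to 9.05 for the other pairs of 1 experiment and population, and its Cd4 level was 9908, against 17302 to 20389 in the other Treg libraries. The PD1hi library of experiment 6 had values of 59.5 and 66.2 with the other PD1hi libraries, while those had 22.3 with each other. The differences of the 10 genes are given with these libraries and, beside each comparison as a whole, without them. The sorted genes followed the labels, with Pdcd1 between 33610 and 39713 in PD1hi libraries and at most 2266 in Treg libraries and 1374 in Tconv libraries. Foxp3 was at most 129 in PD1hi libraries, at 12904 to 18885 in Treg libraries and at most 332 in Tconv libraries. The summed level of the T cell genes Cd3d, Cd3e, Cd3g, Cd4 and Cd5 was 122682 to 128723 in PD1hi libraries, 73787 to 86476 in Treg libraries and 93518 to 102734 in Tconv libraries. In bulk RNA a smaller share of expressing cells and less RNA per cell cannot be told apart.

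Several of these genes are textbook examples of promoters with kappaB sites, the DNA element that NF-kappaB dimers bind, so their promoter sequences are shown first. RefSeq promoter windows (250 bases before to 50 bases after a start site, build GRCm38.p6) were matched for 7 of the 10 genes, all but Nfkb1, Relb and Nfkbiz, with 12 windows among them. The kappaB consensus of 10 bases was searched by its letters on both strands, with overlapping matches kept and merged where they share bases. The windows below run 5′ to 3′ on the strand of their gene, with bases that belong to a match in capitals. Nfkb2, Rel, Nfkbia and Tnfaip3 are shown for their matches close to the start, and Rela as the matched gene without one.
Nfkb2, chr19:46304487-46304786, plus strand: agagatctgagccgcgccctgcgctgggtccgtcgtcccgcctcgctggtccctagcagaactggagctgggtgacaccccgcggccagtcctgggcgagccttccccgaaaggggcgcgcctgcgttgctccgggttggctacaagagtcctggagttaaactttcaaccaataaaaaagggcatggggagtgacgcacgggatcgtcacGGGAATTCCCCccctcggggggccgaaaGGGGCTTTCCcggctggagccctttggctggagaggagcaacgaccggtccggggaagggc
Rel, chr11:23770920-23771219, minus strand: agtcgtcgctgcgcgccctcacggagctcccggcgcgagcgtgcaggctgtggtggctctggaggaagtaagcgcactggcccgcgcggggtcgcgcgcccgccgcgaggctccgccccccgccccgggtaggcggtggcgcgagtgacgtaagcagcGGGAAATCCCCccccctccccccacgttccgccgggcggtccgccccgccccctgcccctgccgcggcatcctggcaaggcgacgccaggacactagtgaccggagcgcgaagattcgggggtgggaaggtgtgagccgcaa
Nfkbia, chr12:55492598-55492897, minus strand: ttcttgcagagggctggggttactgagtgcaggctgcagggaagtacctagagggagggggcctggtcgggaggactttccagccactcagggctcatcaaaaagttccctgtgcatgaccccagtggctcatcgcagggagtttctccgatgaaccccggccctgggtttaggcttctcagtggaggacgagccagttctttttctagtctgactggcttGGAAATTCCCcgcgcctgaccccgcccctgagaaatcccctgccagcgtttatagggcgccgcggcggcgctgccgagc
Tnfaip3, chr10:19015361-19015660, minus strand: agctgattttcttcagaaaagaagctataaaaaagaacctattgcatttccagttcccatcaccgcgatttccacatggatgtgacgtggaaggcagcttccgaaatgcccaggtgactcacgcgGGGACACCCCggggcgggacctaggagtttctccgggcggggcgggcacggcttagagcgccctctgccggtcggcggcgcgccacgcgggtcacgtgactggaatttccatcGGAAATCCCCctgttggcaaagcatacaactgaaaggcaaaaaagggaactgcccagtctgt
Rela, chr19:5637291-5637590, plus strand: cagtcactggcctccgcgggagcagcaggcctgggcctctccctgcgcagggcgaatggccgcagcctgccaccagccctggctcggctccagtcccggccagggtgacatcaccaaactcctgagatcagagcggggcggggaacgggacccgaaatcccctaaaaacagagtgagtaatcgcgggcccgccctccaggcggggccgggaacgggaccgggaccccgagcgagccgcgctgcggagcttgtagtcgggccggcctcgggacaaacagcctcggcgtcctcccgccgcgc
Positions are those of the first bases of the matches, counted from the start site. The Nfkb2 window had overlapping matches at -39, on both strands, and at -38, on the strand opposite to the gene, and a match at -11. The Rel matches overlapped in the same way, at -92 on both strands and at -91 on the opposite strand. Nfkbia had 1 match, at -29, and Tnfaip3 had matches at -125, on both strands, and at -12. Nfkbie held a match at -106, and Nfkbid held matches at -226, on both strands, and at -181 of 1 of its starts. Among the genes with windows, 6 of 7 held at least 1 match, where 9.55% of all 27025 genes did in any window. By window, 8 of 12 held a match (66.7%). The overlapping Nfkb2 windows chr19:46305445-46305744 and chr19:46305680-46305979 share a site, which is counted in both. A match was held by 8.46% of all 32851 mouse windows, and by 10.4% of the windows whose genes were measured here. A match describes the letters only.

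Set against Tconv, PD1hi cells had more transcript of 4 of the 5 subunit genes and of all 5 inhibitor genes, 9 of 10 genes called higher where 26.1% of all genes tested were called and 14.2% were called higher. Leaving out 1 value at a time left 3 to 9 of these calls, while 1532 to 2056 of all genes were called higher, against 2012 with all values. The largest difference was in Nfkb1, 2.87-fold, followed by Relb, Nfkb2 and Rel, and the inhibitors differed by 1.49-fold for Nfkbie to 1.87-fold for Nfkbiz. Rela, the subunit with the highest level per length in all 3 populations, did not pass the test in any comparison. Treg cells passed the test above Tconv for Tnfaip3 and Nfkbiz, and PD1hi cells passed it above Treg for Nfkb1. Of 18 alternative fits, the Treg call was kept in 18 for Tnfaip3 and in 11 for Nfkbiz. With experiment as a block, Relb and Nfkbia also passed in Treg above Tconv.

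**Figure D1:**
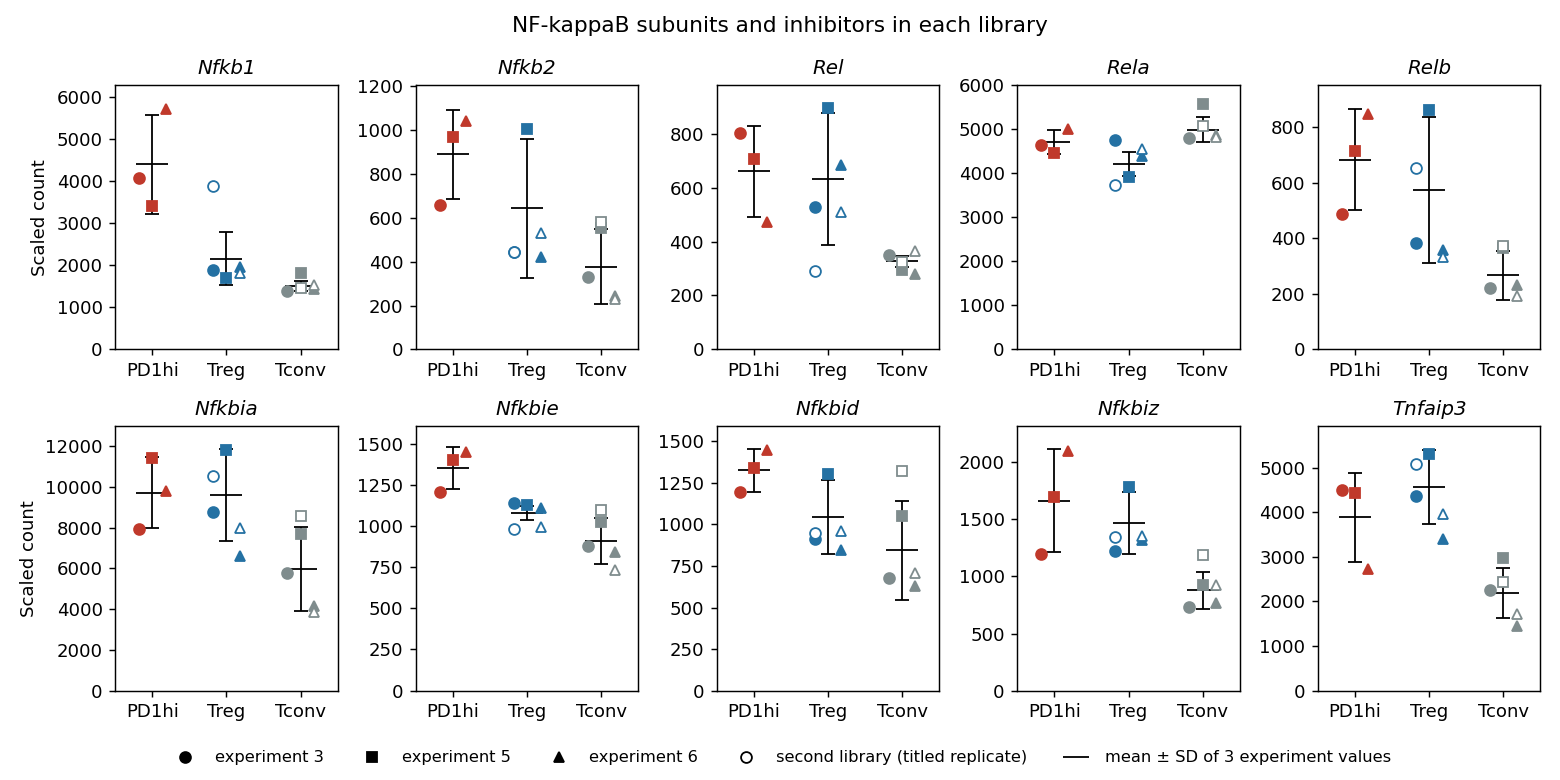
Scaled count (y axis, from 0) of the 10 genes in each of the 13 libraries, with PD1hi, Treg and Tconv from left to right, marker shape for the experiment and open markers for second libraries. Lines and bars are the mean ± SD of 3 experiment values. The 3 PD1hi libraries lie above all 5 Tconv libraries for Nfkb1, Nfkb2, Rel, Relb, Nfkbie and Nfkbiz, and the Rela points of the 3 populations lie at similar heights.

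Nfkb1 (ENSMUSG00000028163, chromosome 3) encodes p105, which is processed to the p50 subunit and in its unprocessed form acts as an IkB. Its scaled count was 4068, 3419 and 5712 in PD1hi of experiments 3, 5 and 6, against 1879, 3878, 1702, 1947 and 1812 in Treg and 1390, 1807, 1450, 1443 and 1529 in Tconv. All PD1hi libraries lay above all Tconv libraries, and 4 of the 5 Treg libraries lay close to the top of the Tconv range. The exception was the second Treg library of experiment 3, at 3878, inside the PD1hi range. Nfkb1 was higher in PD1hi than in Tconv by 1.52 ± 0.22 on the log2 scale (limma, adjusted p = 0.00028) and higher in PD1hi than in Treg by 1.04 ± 0.22 (limma, adjusted p = 0.00585). Without that Treg library the PD1hi and Treg libraries no longer overlapped, and the difference was 1.24 (limma, adjusted p = 0.00033). In all 3 experiments PD1hi exceeded Treg, by 0.50, 1.01 and 1.60 on the log2 scale in experiments 3, 5 and 6. Treg differed from Tconv by 0.48 ± 0.22 (limma, adjusted p = 0.194), and by 0.28 without the second Treg library of experiment 3.

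Relb (ENSMUSG00000002983, chromosome 7) encodes the subunit that pairs mainly with p52 in the alternative pathway. PD1hi libraries had scaled counts of 488, 713 and 847, against 383, 654, 862, 357 and 332 in Treg libraries and 220, 364, 372, 233 and 193 in Tconv libraries. The PD1hi libraries lay above all Tconv libraries, and the Treg libraries spread over both ranges, with the single library of experiment 5 the highest of all 13. PD1hi exceeded Tconv by 1.36 ± 0.33 (limma, adjusted p = 0.00962). Treg exceeded Tconv by 1.05 ± 0.33 and missed the threshold (limma, adjusted p = 0.0587), but passed it with experiment as a block (adjusted p = 0.032). It was 0.90 without the second Treg library of experiment 3 (limma, adjusted p = 0.12).

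Nfkb2 (ENSMUSG00000025225, chromosome 19) encodes p100, the precursor of p52. Its scaled count was 657, 968 and 1042 in PD1hi libraries, 443, 445, 1006, 422 and 532 in Treg libraries and 328, 555, 581, 243 and 232 in Tconv libraries. Every PD1hi library was above every Tconv library, the closest being 657 in PD1hi and 581 in Tconv. The difference of PD1hi from Tconv was 1.30 ± 0.36 (limma, adjusted p = 0.0178), and within experiments it was 0.999, 0.77 and 2.13 in experiments 3, 5 and 6. Exons of Nfkb2 overlap on the opposite strand with Psd over 299 bases (6.52% of its exon length) and with a noncoding RNA over 531 bases (11.6%) in GENCODE M21. The strand setting of the counting is not given in the sources used here, so reads there cannot be assigned to one gene.

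Rel (ENSMUSG00000020275, chromosome 11) encodes c-Rel, the subunit most closely tied to T cell activation. PD1hi libraries held 801, 706 and 472 scaled counts, Treg libraries 527, 290, 894, 686 and 509, and Tconv libraries 348, 295, 325, 279 and 364. Tconv had the narrowest range, below all PD1hi libraries and below all Treg libraries but the second one of experiment 3, at 290. PD1hi exceeded Tconv by 0.98 ± 0.27 (limma, adjusted p = 0.0197). Treg exceeded Tconv by 0.88 ± 0.27 and just missed the threshold (limma, adjusted p = 0.0525). Without the second Treg library of experiment 3 this became 1.003 and passed (limma, adjusted p = 0.0126). Between PD1hi and Treg the estimate was 0.097 ± 0.27 (limma, adjusted p = 0.865), with opposite signs in experiment 3, at 0.97, and experiments 5 and 6, both at -0.34.

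Rela (ENSMUSG00000024927, chromosome 19) encodes p65, the main transactivating subunit of the classical pathway. Its scaled count was 4639, 4464 and 5011 in PD1hi, 4749, 3724, 3922, 4380 and 4541 in Treg and 4794, 5569, 5066, 4871 and 4812 in Tconv. The PD1hi and Tconv libraries overlapped, whereas all Treg libraries lay below all Tconv libraries, the nearest being 4749 in Treg and 4794 in Tconv. The difference of PD1hi from Tconv was -0.083 ± 0.12 (limma, adjusted p = 0.655) and that of Treg from Tconv -0.25 ± 0.12 (limma, adjusted p = 0.221). Of all genes tested, 9.13% had every Treg library below every Tconv library.

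The cytoplasmic inhibitors come next. Nfkbia (ENSMUSG00000021025, chromosome 12), which encodes IkB alpha, the classical feedback inhibitor, had scaled counts of 7942, 11417 and 9796 in PD1hi libraries, 8778, 10543, 11820, 6597 and 8012 in Treg libraries and 5792, 7712, 8576, 4151 and 3885 in Tconv libraries. PD1hi and Treg covered nearly the same range, and the Tconv libraries of experiment 5 overlapped with both. PD1hi exceeded Tconv by 0.74 ± 0.25 (limma, adjusted p = 0.0461), and by 0.73 without the PD1hi library of experiment 6, where it no longer passed (limma, adjusted p = 0.0702). Treg exceeded Tconv by 0.71 ± 0.25, which missed the threshold (limma, adjusted p = 0.0851) but passed it with experiment as a block (adjusted p = 0.0203). Nfkbie (ENSMUSG00000023947, chromosome 17) encodes IkB epsilon. Its scaled count was 1208, 1397 and 1448 in PD1hi libraries, 1139, 980, 1125, 1110 and 995 in Treg libraries and 880, 1024, 1096, 839 and 735 in Tconv libraries. It was the only one of the 10 genes whose PD1hi libraries all lay above all libraries of both other populations. PD1hi exceeded Tconv by 0.58 ± 0.15 (limma, adjusted p = 0.0131), and its difference from Treg, 0.32 ± 0.15, did not pass the test (limma, adjusted p = 0.191).

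Nfkbid and Nfkbiz encode nuclear IkB proteins, which act on chromatin-bound dimers and can promote as well as restrain transcription. Nfkbid (ENSMUSG00000036931, chromosome 7) encodes IkB-NS, known for its role in the development of regulatory T cells in mice. Its scaled count was 1193, 1337 and 1450 in PD1hi libraries, 910, 951, 1301, 845 and 958 in Treg libraries and 676, 1048, 1321, 630 and 711 in Tconv libraries. The Tconv libraries of experiment 5 were higher than the other Tconv libraries, and the one at 1321 lay above all Treg libraries and inside the PD1hi range. PD1hi exceeded Tconv by 0.70 ± 0.23 (limma, adjusted p = 0.0402), with 0.82, 0.17 and 1.11 in experiments 3, 5 and 6, and by 0.64 without the PD1hi library of experiment 6, where it no longer passed (limma, adjusted p = 0.0803). Nfkbiz (ENSMUSG00000035356, chromosome 16) encodes IkB zeta. PD1hi libraries held 1194, 1696 and 2097 scaled counts, Treg libraries 1225, 1348, 1782, 1322 and 1357, and Tconv libraries 730, 921, 1188, 772 and 926. All PD1hi and all Treg libraries were above all Tconv libraries, the closest pair being 1194 against 1188. PD1hi exceeded Tconv by 0.90 ± 0.22 (limma, adjusted p = 0.0095) and Treg exceeded Tconv by 0.74 ± 0.22 (limma, adjusted p = 0.0422). Without the second Treg library of experiment 3 the Treg difference was 0.72 and no longer passed (adjusted p = 0.0511).

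Tnfaip3 (ENSMUSG00000019850, chromosome 10) encodes A20, a ubiquitin-editing enzyme that shuts off signalling upstream of IKK. Its scaled count was 4503, 4428 and 2727 in PD1hi libraries, 4372, 5091, 5306, 3390 and 3956 in Treg libraries and 2256, 2981, 2431, 1454 and 1723 in Tconv libraries. Every Treg library lay above every Tconv library, while the PD1hi library of experiment 6 fell among the Tconv libraries of experiment 5. Treg exceeded Tconv by 1.08 ± 0.24 (limma, adjusted p = 0.0084), the largest Treg difference of the 10 genes, and PD1hi exceeded Tconv by 0.83 ± 0.24 (limma, adjusted p = 0.022). It was also the only one of the 10 genes with a mean lower in PD1hi than in Treg, by -0.25 ± 0.24 on the log2 scale, which did not pass the test (limma, adjusted p = 0.546).

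In PD1hi against Tconv 9 of the 10 genes were called, all higher, where 26.1% of the 14177 genes were called, 14.2% higher and 11.9% lower. In 6 of the 10 every PD1hi library was above every Tconv library, as in 17.5% of all genes. Their median log2 difference was 0.86 and that of all genes -0.00038. The 9 genes that were called had the same direction in each of the 3 experiments. These are the values that gave the calls, so the shared direction is not separate evidence. The share of all genes with 1 direction was not counted. When the libraries were scaled to equal totals instead, all genes shifted up by 0.14 at the median, 65.4% of the called genes were higher in PD1hi instead of 54.4%, the same count of 9 was called and Rela turned to 0.061. Without the PD1hi library of experiment 6 the differences were 1.32 for Nfkb1, 1.19 for Relb, 1.17 for Nfkb2, 1.202 for Rel, 1.07 for Tnfaip3, 0.71 for Nfkbiz, 0.73 for Nfkbia, 0.64 for Nfkbid, 0.53 for Nfkbie and -0.13 for Rela. The count was then 7, with Nfkbia and Nfkbid lost, and it was also 7 without that library and the second Treg library of experiment 3. It was 7 without PD1hi of experiment 3, where Rel and Tnfaip3 were lost, and 4 without PD1hi of experiment 5, where Nfkb1, Relb, Nfkbie and Nfkbiz were left. It was 4 without Tconv of experiment 3, with Nfkb1, Relb, Rel and Nfkbiz left, and 3 without Tconv of experiment 6, while Nfkb1, Relb and Nfkbiz were called under each of the 18 alternatives. The count over all genes fell too: 1754 were called higher without PD1hi of experiment 5, 1652 without Tconv of experiment 3 and 1532 without Tconv of experiment 6, against 2012 with all values.

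In PD1hi against Treg, 1 of the 10 genes was called, Nfkb1, where 16.5% of all genes were called, 8.16% higher and 8.39% lower. Every PD1hi library lay above every Treg library for 1 gene, Nfkbie, as in 11.7% of all genes. Without the second Treg library of experiment 3 this also held for Nfkb1. With all libraries kept, the median difference was 0.24, against -0.0088 for all genes. In this comparison 5 of the 10 genes kept 1 direction in all 3 experiments, a count not made for all genes. Differences that did not pass were -0.25 to 0.54 on the log2 scale, and with SEs of 0.12 to 0.36 such sizes were not resolved by 3 values per population. Without the PD1hi library of experiment 6 the difference was 0.83 for Nfkb1, still called, 0.42 for Nfkb2, 0.32 for Rel, 0.12 for Rela, 0.14 for Relb, 0.017 for Nfkbia, 0.27 for Nfkbie, 0.29 for Nfkbid, -0.030 for Nfkbiz and -0.017 for Tnfaip3. Without the second Treg library of experiment 3 it was 1.24 for Nfkb1, still the only call, and between -0.22 for Tnfaip3 and 0.55 for Nfkb2 for the others, with Rel at -0.025.

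In Treg against Tconv, 2 of the 10 genes were called, Tnfaip3 and Nfkbiz, both higher in Treg, where 14.4% of all genes were called, 8.73% higher and 5.66% lower. In both of them every Treg library was above every Tconv library, as in 10.6% of all genes. The sign of the difference was the same in each of the 3 experiments for all 10 genes, positive for 9 of them and negative for Rela, a count not made for all genes. Their median difference was 0.73, against 0.0061 for all genes. With experiment as a block the count was 4, with Relb and Nfkbia added. Without the second Treg library of experiment 3 the differences were 1.05 for Tnfaip3, 0.72 for Nfkbiz, 1.003 for Rel, 0.90 for Relb, 0.75 for Nfkb2, 0.67 for Nfkbia, 0.33 for Nfkbid, 0.29 for Nfkbie, 0.28 for Nfkb1 and -0.19 for Rela, and the calls were Tnfaip3 and Rel. Leaving out 1 value gave counts of 1 to 4, and Tnfaip3 was called each time. Of all genes 903 to 1543 were then called higher, against 1237 with all values. The 3 comparisons share samples, so their values for 1 gene are not separate evidence.

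**Figure D2:**
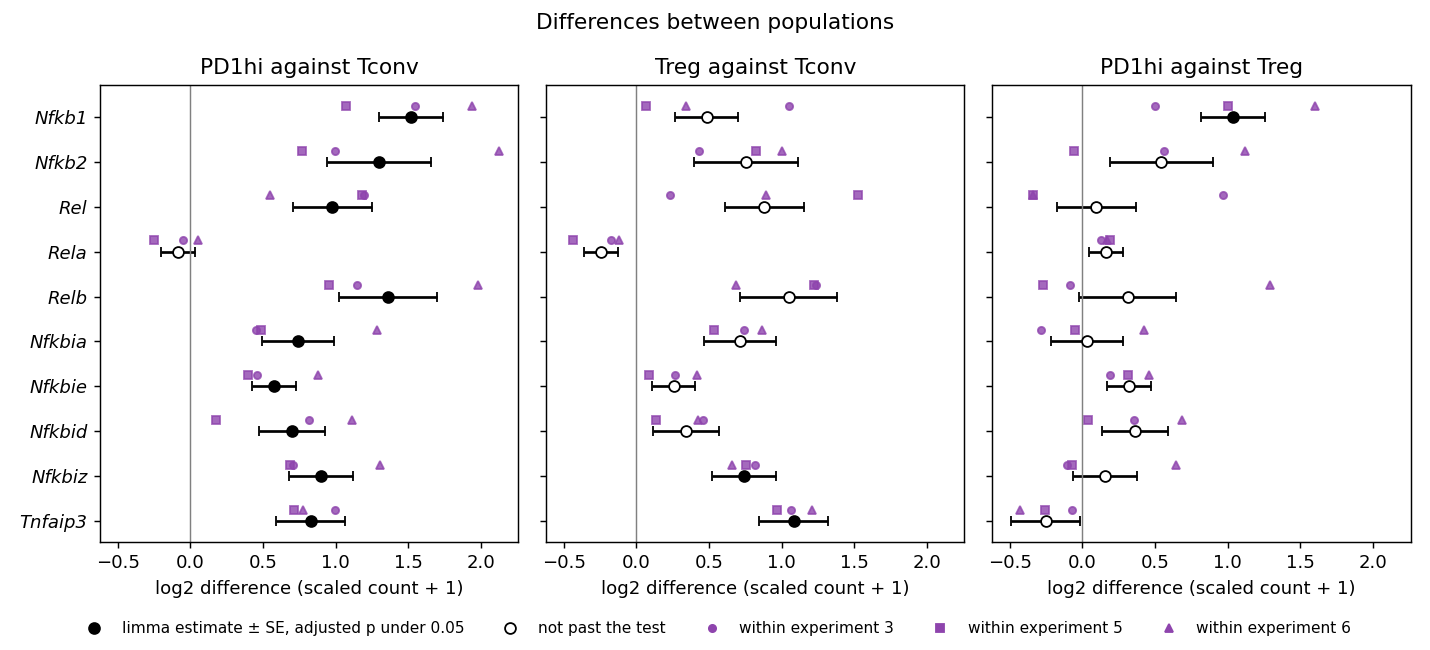
Log2 difference (x axis, log2 of scaled count + 1) of the 10 genes in PD1hi against Tconv, Treg against Tconv and PD1hi against Treg. Circles are limma estimates ± SE, filled where the adjusted p was under 0.05, and small markers above each are the differences within experiments 3, 5 and 6. In the PD1hi against Tconv panel 9 circles are filled, all right of 0, and only Rela is open.

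Per length of transcript the make-up of the subunits differed between the populations. With scaled counts divided by the length of the longest annotated coding transcript, Rela made up 50.1 ± 3.6% of the summed subunit level in PD1hi, 59.3 ± 6.3% in Treg and 74.0 ± 2.3% in Tconv. The share of Nfkb1 was 30.4 ± 4.3% in PD1hi, 19.9 ± 5.5% in Treg and 14.7 ± 0.53% in Tconv. Relb held 8.83 ± 1.75% in PD1hi, 9.84 ± 4.24% in Treg and 4.798 ± 1.11% in Tconv. In each experiment the Rela share was lowest in PD1hi, then Treg, then Tconv. Nfkb2 had shares of 8.12 ± 1.59%, 7.76 ± 3.63% and 4.75 ± 1.72% in PD1hi, Treg and Tconv, and Rel, whose transcript is the longest, had 2.62 ± 0.92%, 3.24 ± 1.21% and 1.78 ± 0.24% in the same order. The shares depend on the length chosen: with the union of all annotated exons, Rela held 65.2% in PD1hi, 71.4% in Treg and 83.7% in Tconv, and Nfkb1 held 15.3%, 9.32% and 6.41%, so the order of the population means stayed and the shares moved. Within experiment 5 the Rela share by exon union was 65.3% in PD1hi and 64.5% in Treg, the other way round than with the transcript length. Without the second Treg library of experiment 3 the Treg shares by transcript length were 62.4 ± 7.6% for Rela and 17.1 ± 1.5% for Nfkb1, and without the PD1hi library of experiment 6 the PD1hi shares were 52.8% and 51.4% for Rela and 30.6% and 26.0% for Nfkb1 in experiments 3 and 5. In a single library the ratio of Nfkb1 to Rela scaled counts does not depend on scaling. Where libraries were averaged first, the scaling sets their weights. This ratio was 0.928 ± 0.192 in PD1hi, 0.512 ± 0.145 in Treg and 0.301 ± 0.0097 in Tconv. It was 0.417 ± 0.020 in Treg without the second library of experiment 3 and 0.877 and 0.766 in PD1hi of experiments 3 and 5. Among the inhibitors Nfkbia was the most abundant per kilobase, at 6159 ± 1102 in PD1hi cells, 6080 ± 1431 in Treg cells and 3793 ± 1312 in Tconv cells. Tnfaip3 followed at 879 ± 227, 1034 ± 187 and 494 ± 127 per kilobase in the same order. Nfkbid, Nfkbie and Nfkbiz lay between 213 and 651 per kilobase in all populations.

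**Figure D3:**
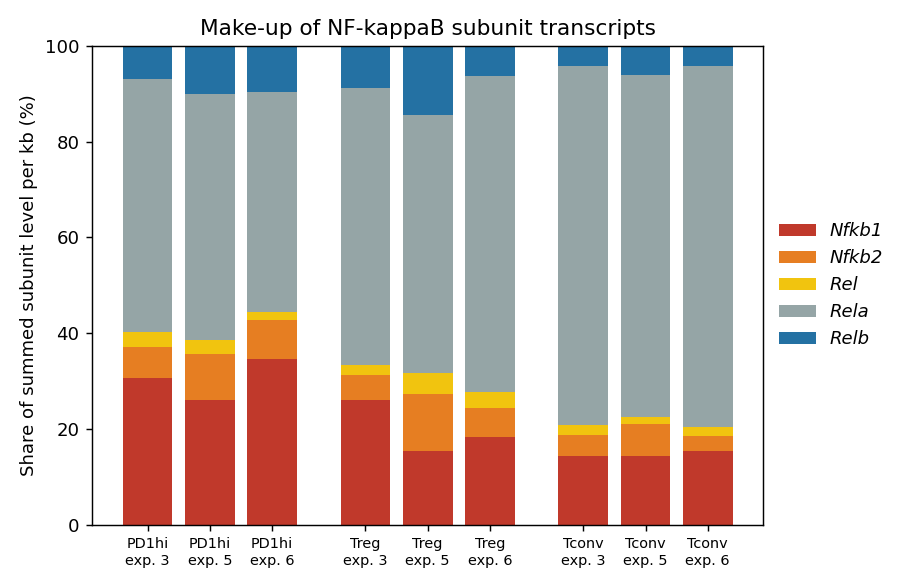
Share of each of the 5 subunit genes (y axis, %) in their summed level per kilobase of transcript, for each population and experiment. The Rela band is narrowest in the PD1hi bars, with a mean of 50.1%, and widest in the Tconv bars, with a mean of 74.0%, and the Nfkb1 band runs the other way.

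Within the populations the values also differed between experiments. In Treg 8 of the 10 genes, and in Tconv 9 of the 10, had their highest value in experiment 5, where 33% and 35.2% of all genes did. In both populations together 7 of the 10 genes peaked in experiment 5, namely Nfkb2, Relb, Nfkbia, Nfkbie, Nfkbid, Nfkbiz and Tnfaip3, as did 17.6% of all genes. Nfkb2 stood 0.75 above its Treg mean and 0.68 above its Tconv mean in experiment 5 on the log2 scale, and Relb 0.68 and 0.51 above them. PD1hi had another pattern: 7 of the 10 genes were highest in experiment 6, where 37.1% of all genes were, and Rel and Tnfaip3 were lowest there, by -0.45 and -0.47. The PD1hi value of experiment 6 is the 1 library that stood apart from the other PD1hi libraries, and the Treg value of experiment 5 is also 1 library. These counts are a description of 3 values per population. What set the experiments apart is not in the labels, and its part in the result was not tested.

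**Figure D4:**
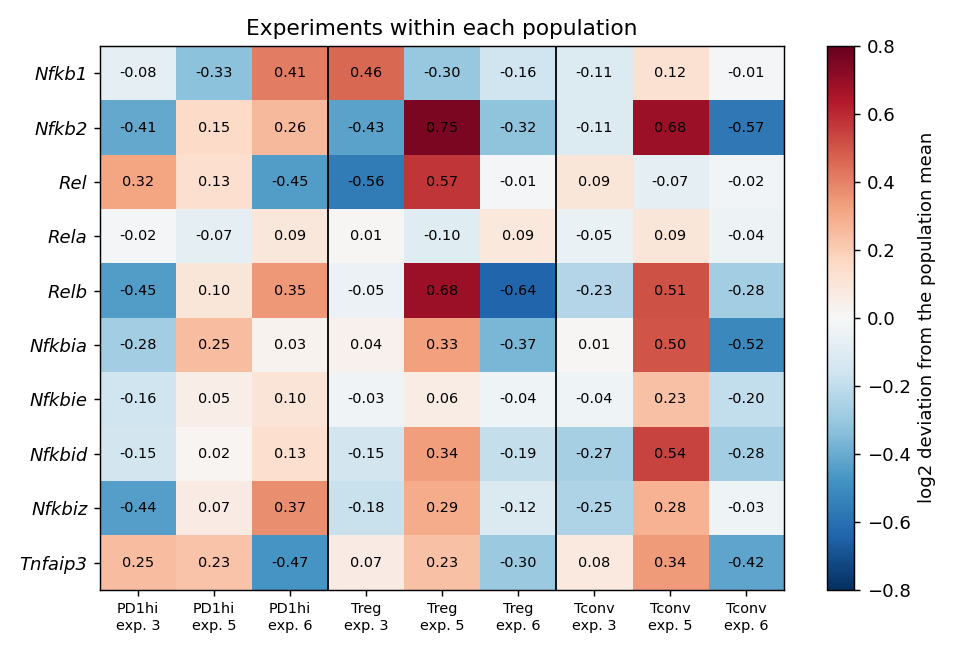
Log2 deviation of each gene's value from the mean of its population, in experiments 3, 5 and 6 of PD1hi, Treg and Tconv (colour scale from -0.8 to 0.8, blue low, red high). The Treg and Tconv columns of experiment 5 are mostly red, with Nfkb2 at 0.75 and 0.68, and in PD1hi the red cells gather in experiment 6. That PD1hi column and the Treg column of experiment 5 each rest on 1 library.

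The other genes of the pathway were counted from lists ordered by their place in it. Among 16 other IkB proteins and negative regulators, 3 were higher and 0 lower in PD1hi than in Tconv, a share near the 14.2% of all genes called higher, with a list median of 0.28 against -0.00038 for all genes. These were Tnip3, at 137 ± 5.5 in PD1hi and 20.8 ± 6.0 in Tconv (2.70 ± 0.27), Zc3h12a, which encodes the ribonuclease Regnase-1, at 196 ± 28.8 and 98.1 ± 34.6 (1.04 ± 0.32), and Tnip2, at 884 ± 119 and 458 ± 107 (0.97 ± 0.19). Tnip proteins bind A20. Zc3h12a was no longer called without the second Treg library of experiment 3, the PD1hi library of experiment 6, Tconv of experiment 3 or Tconv of experiment 6, and without the PD1hi library Fam105b was called lower. Treg also had 3 higher and 0 lower than Tconv, where 8.73% of all genes were called higher, Tnip3 at 216 ± 5.8 in Treg and 20.8 ± 6.0 in Tconv (3.36 ± 0.27), N4bp1 at 834 ± 236 in Treg and 410 ± 20.6 in Tconv (0.99 ± 0.23) and Tnip1 at 4159 ± 119 and 3024 ± 273 (0.46 ± 0.13), and the list median was 0.086 against 0.0061. This count was 1 without Tconv of experiment 3 and 1 without Treg of experiment 3. Between PD1hi and Treg only Tnip2 was called, higher by 0.91 ± 0.19, where 8.16% of all genes were called higher, and the median was -0.18 against -0.0088. The count was 3 without the second Treg library of experiment 3, with N4bp1 and Tax1bp1 lower in PD1hi, and 3 without the PD1hi library of experiment 6, with N4bp1 and Fam105b lower.

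The signalling genes upstream were counted next. Of 10 genes of the IKK complex and its activating kinases, 0 were higher and 2 lower in PD1hi than in Tconv, Ikbkb, the catalytic subunit of the classical pathway, at 4935 ± 639 in PD1hi and 10160 ± 1116 in Tconv (-1.04 ± 0.16) and Ikbke at 4534 ± 314 and 7854 ± 971 (-0.79 ± 0.14). Of all genes 11.9% were called lower there, and the list median was -0.12 against -0.00038. Ikbkb was also lower in PD1hi than in Treg, by -0.75 ± 0.16, the only call of that list there, where 8.39% of all genes were called lower, with a median of -0.089. In Treg against Tconv the only call was Ikbke, lower by -0.75 ± 0.14, where 5.66% of all genes were called lower, with a median of 0.034, and 2 were called without PD1hi of experiment 6, Tab1 being added. Of 9 genes that link the T cell receptor to NF-kappaB, 1 was higher in PD1hi than in Tconv, Malt1, which encodes a paracaspase, at 4485 ± 1355 in PD1hi and 1132 ± 21.5 in Tconv (1.94 ± 0.18). Another 3 were lower, among them Traf6 by -0.71 ± 0.20 and Casp8 by -0.70 ± 0.11, against 14.2% of all genes higher and 11.9% lower, and the list median was -0.17. The count of lower genes was 1, Casp8, without Tconv of experiment 3 or without Tconv of experiment 6. In PD1hi against Treg, 2 were higher, Malt1 by 1.502 ± 0.18 and the costimulatory receptor gene Cd28 by 0.52 ± 0.13, and 2 lower, Casp8 by -0.92 ± 0.11 and Traf6 by -0.79 ± 0.20, against 8.16% and 8.39% of all genes, with a median of 0.11. In Treg against Tconv 1 of the 9 was called, lower in Treg, with a median of -0.14, and Malt1 was called higher as well without PD1hi of experiment 6.

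Of 5 genes of the alternative pathway, Map3k14, which encodes the kinase NIK, was lower in both PD1hi and Treg, at 1750 ± 134 and 1356 ± 159, than in Tconv, at 3408 ± 88.5, by -0.96 ± 0.13 and -1.34 ± 0.13. Traf3, which targets NIK for degradation, was higher in PD1hi than in Tconv by 0.47 ± 0.14, a call lost without Tconv of experiment 3 or without Tconv of experiment 6. In PD1hi against Treg the only call was Birc3, lower by -0.62 ± 0.13, joined by Birc2 without the second Treg library of experiment 3. The list medians were -0.35 in PD1hi against Tconv, -0.13 in PD1hi against Treg and 0.26 in Treg against Tconv, where those of all genes were -0.00038, -0.0088 and 0.0061. Of all genes 26.1%, 16.5% and 14.4% were called in the same order, and 2, 1 and 1 of these 5 genes.

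Of 21 genes known as NF-kappaB targets in lymphocytes, 8 were higher and 5 lower in PD1hi than in Tconv, against 14.2% and 11.9% of all genes, with a list median of 0.20 against -0.00038 for all genes. Named by the size of their change, these were the activation marker Cd83, at 5357 ± 1082 in PD1hi and 226 ± 71.8 in Tconv (4.59 ± 0.21), the lymph node homing receptor gene Ccr7, at 1987 ± 275 and 19220 ± 1232 (-3.28 ± 0.13), and the survival genes Bcl2a1a (2.22 ± 0.30) and Bcl2a1d (2.11 ± 0.19). The Bcl2a1 genes are near-identical copies, so reads may have been split or dropped among them. Each copy is counted as a gene of its own, among the 8 higher here and as most of the 4 higher in PD1hi against Treg. In PD1hi against Treg, 4 were higher and 9 lower, against 8.16% and 8.39% of all genes, with a median of -0.037: Il2ra, at 344 ± 31.3 in PD1hi and 24690 ± 994 in Treg (-6.17 ± 0.13), Myc, at 812 ± 151 and 2924 ± 449 (-1.85 ± 0.17), Bcl2a1d (2.41 ± 0.19) and Bcl2a1a (1.49 ± 0.30). In Treg against Tconv, 8 were higher and 2 lower, against 8.73% and 5.66% of all genes, with a median of 0.43 against 0.0061: Il2ra (5.53 ± 0.13), Cd83, at 5427 ± 251 in Treg (4.62 ± 0.21), Ebi3, at 315 ± 84.0 in Treg and 38.9 ± 8.7 in Tconv (2.97 ± 0.28), and the low cytokine gene Csf2, at 2.83 ± 2.55 and 18.8 ± 4.8 (-2.69 ± 0.72). Several targets are regulated by other factors as well, among them Il2ra by Foxp3.

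**Figure D5:**
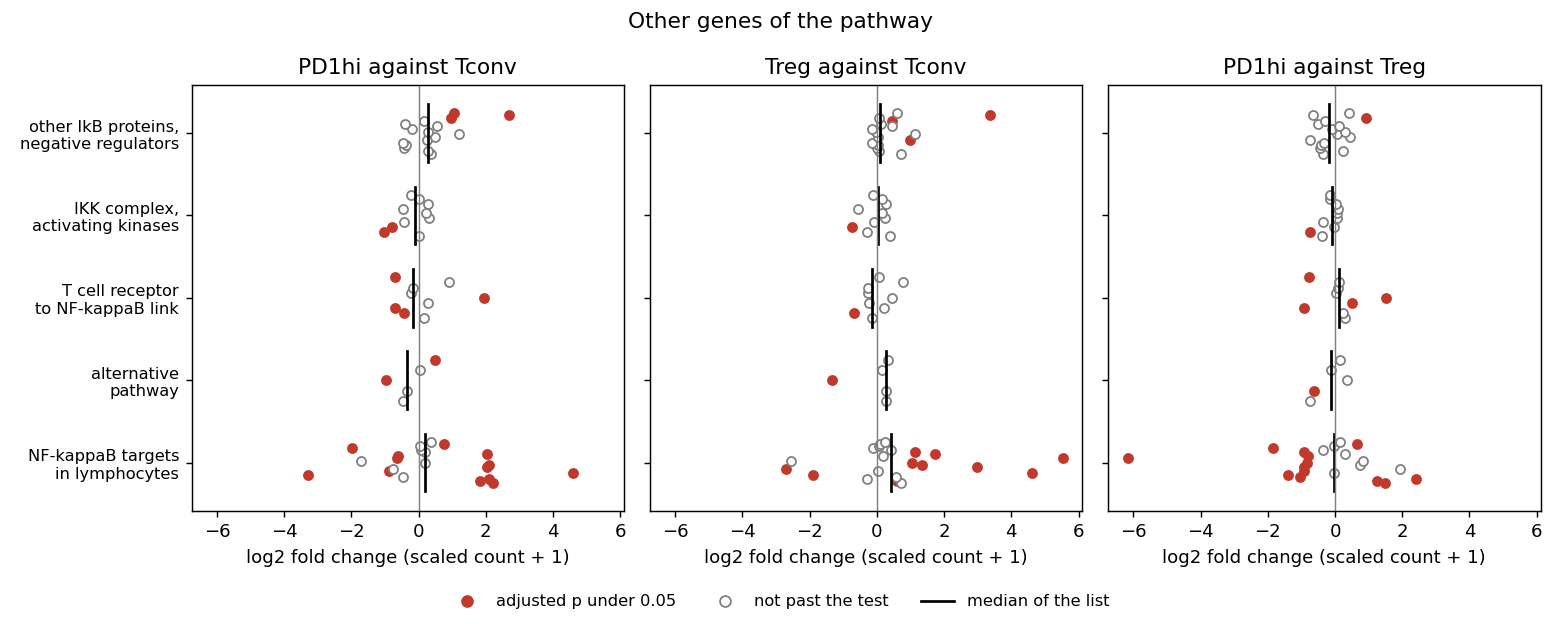
Log2 fold change (x axis) of each gene of 5 pathway lists in PD1hi against Tconv, Treg against Tconv and PD1hi against Treg, filled red where the adjusted p was under 0.05, with the list median as a black line. Targets spread from -6.17 to 5.53, whereas genes of the IKK complex lie between -1.04 and 0.40.

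For the 3 genes with the widest range of population means, the genes with the most similar pattern over the 9 values were sought among the other 14167 tested genes, by Pearson's r of log2 values. Nfkb1 was most like Smarcc1 (r = 0.996), a chromatin remodelling subunit, Rdbp (0.984), a subunit of the negative elongation factor, and Fkbp5 (0.983), a co-chaperone of steroid receptors. Fkbp5 stood at 1220 ± 439 in PD1hi cells, 354 ± 111 in Treg cells and 272 ± 28.4 in Tconv cells. Relb was most like Xbp1 (0.991), a factor of the unfolded protein response, Ly6a (0.979) and Il3ra (0.978), and Nfkb2 was most like Creld2 (0.989), Zc3h12a (0.982) and Rnpep (0.981). Xbp1 stood at 1351 ± 229 in PD1hi cells, 1178 ± 319 in Treg cells and 645 ± 126 in Tconv cells. The 9 values share populations and experiments, so such an r is a description.

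Markers of other cells were summed beside these results. Of 8 B cell genes the summed scaled count was 1687 to 2296 in PD1hi libraries, 821 to 1257 in Treg libraries and 215 to 422 in Tconv libraries. Of the 5 that were tested, 2 were higher in PD1hi than in Tconv, where 14.2% of all genes were called higher. Cd22 made up most of the PD1hi sum, with 1675 ± 243 in PD1hi, 241 ± 30.7 in Treg and 178 ± 51.8 in Tconv. Cd79b made up most of the Treg sum, with 130 ± 39.4 in PD1hi, 629 ± 83.8 in Treg and 57.8 ± 3.1 in Tconv. The defining gene Pax5 had 6.48 ± 4.01 in PD1hi, 0.54 ± 0.93 in Treg and 1.07 ± 1.85 in Tconv. Of 4 plasma cell genes, which include Xbp1, the sum was 3495 to 6475 in PD1hi, 3764 to 7160 in Treg and 1692 to 2666 in Tconv. Of the 3 that were tested, 2 were higher than in Tconv in PD1hi and in Treg alike, against 14.2% and 8.73% of all genes. Most of the plasma cell sum was Igj, at 3866 ± 1352 in PD1hi cells, 4316 ± 1350 in Treg cells and 1586 ± 406 in Tconv cells. Of 10 myeloid and dendritic genes the sum was 1736 to 2203 in PD1hi, 1555 to 2680 in Treg and 1333 to 1736 in Tconv. Most of it was Cst3, at 1520 ± 134, 1438 ± 182 and 1098 ± 168 in the same order. Itgam was lowest in PD1hi, at 13.7 ± 8.3, against 109 ± 36.6 in Treg and 124 ± 46.1 in Tconv. Of the 9 that were tested, 1 was higher and 1 lower in PD1hi than in Tconv, against 14.2% and 11.9% of all genes. Of 6 genes of CD8 T and NK cells the sum was 2480 to 3840 in PD1hi, 973 to 1305 in Treg and 4903 to 7377 in Tconv. Its largest part was Nkg7, at 2567 ± 677, 662 ± 114 and 4111 ± 1264 in the same order. Of the 5 that were tested, 2 were lower in PD1hi than in Tconv and 3 lower in Treg than in Tconv. Of all genes 11.9% and 5.66% were called lower there. Of 5 erythroid and platelet genes the sum was 46.1 to 67.4 in PD1hi, 34.5 to 54.3 in Treg and 8.55 to 44.8 in Tconv. None of these genes was without reads in all libraries of a population. B cells and myeloid cells also express NF-kappaB genes, and the part of such cells in the result was not tested.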

How the data were processed

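The labels' protocols give Trizol extraction, ribosomal RNA depletion with a low-input RiboMinus kit and library preparation with the Ion Total RNA-seq kit on the Ion Torrent platform. Picard, HTSeq 0.5.4 and limma, and the builds hg19, GRCh37 and mm9 with no role, appear in the submitters' processing notes. Aligner, annotation and strand setting: not given in the sources used here. What the authors deposited is a single table with a signal value for 18649 genes in 13 libraries, named as counts scaled by size factors. After 1 was taken off, each signal value was a whole multiple, within 0.001, of what a read is worth in its library, and the result is called the scaled count. Reads served only to give depth and sampling noise, and no count model was run because the deposited unit is not raw counts.

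Libraries that share experiment and population differed by more than sampling noise in every pair and were averaged, giving 9 values, 3 for each population. Whether they come from separate animals is not stated in the labels, so the p-values reflect the spread of these samples, and part of it may be technical. Testing covered the 14177 genes whose scaled count averaged at least 10. Limma 3.58.1 (R 4.3.3) was fitted to log2(scaled count + 1) with a mean trend and a variance shared by all 3 populations, 2-sided, with Benjamini-Hochberg adjustment over all genes tested. The pseudocount understates the change of low genes. The code was tested on simulated data.

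The 10 genes, the pathway and marker lists and the tests were chosen with earlier results of these data known. All 10 genes are named in each comparison. Of each pathway list up to 4 called genes per comparison with the largest absolute log2 fold change are named, and for the 3 of the 10 genes with the widest range of population means the 3 genes with the highest Pearson r. Experiment numbers were checked for pairing by the correlation, over 14177 genes, of deviations from the population means. For Treg and Tconv these were 0.243, 0.218 and 0.298 in experiments 3, 5 and 6, all over 0.1, so the numbers pair these samples. For PD1hi they were 0.197, 0.125 and 0.0187 with Tconv and 0.092, 0.169 and -0.07 with Treg, not all of them over 0.1. With 3 values per population a low correlation cannot exclude pairing, so this check does not settle whether the PD1hi samples are paired. Lengths were those of the longest transcript with a consensus coding sequence in GENCODE M21, and promoter windows came from RefSeq. Protein sequences were not used here. Alternatives were a pseudocount of 10, no filter or a minimum of 50, equal totals, experiment as a block, all 13 libraries with duplicateCorrelation, only the populations compared, leaving out each value in turn, and leaving out the libraries that stood apart, of which leaving out both together was added after seeing the data. Some genes of the pathway and marker lists are counted but not reported by name here.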

Additional observations from a re-analysis of the deposited data

Results flagged for a closer look

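In groups of 5 libraries the highest or lowest library was compared with its nearest neighbour, and it was marked where that gap took up more of the range than Dixon's critical value of 0.71. Of 20 such groups, the 10 genes in Treg and in Tconv, 4 were marked. Chance marks about 1 in 20 of separate groups, but these genes share libraries, so the marks cannot be compared with that rate. Nfkb1 reached 3878 in the second Treg library of experiment 3, against 1702 to 1947 in the other Treg libraries. In the Treg library of experiment 5, Nfkb2 reached 1006, against 422 to 532 in the others, Nfkbid reached 1301, against 845 to 958, and Nfkbiz reached 1782, against 1225 to 1357. No Tconv library was marked for any of the 10 genes.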

How the results depend on the processing

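Across 18 alternatives, 151 of 180 values for the 10 genes in PD1hi against Tconv, 171 of 180 in PD1hi against Treg and 156 of 180 in Treg against Tconv kept their direction and side of the threshold. Nfkb1 was called in all 18 in both PD1hi comparisons, Relb and Nfkbiz in all 18 in PD1hi against Tconv and Tnfaip3 in all 18 in Treg against Tconv. In PD1hi against Tconv, Nfkbie was called in 16, Nfkb2 in 15, Rel and Tnfaip3 in 14, Nfkbia in 11 and Nfkbid in 10. Leaving out 1 value at a time gave 3 to 9 of the 10 genes called in PD1hi against Tconv and 1 to 4 in Treg against Tconv, where the counts were 1 without PD1hi or Treg of experiment 5 or Tconv of experiment 3 or 6, and 4 without PD1hi of experiment 6 or Tconv of experiment 5. With only the 2 populations compared the counts were 7 and 4, and with all 13 libraries and duplicateCorrelation they were 9 and 4. With experiment as a block, 9 genes were called in PD1hi against Tconv, 1 in PD1hi against Treg and 4 in Treg against Tconv, and 3974 and 2579 of all genes in the PD1hi comparisons, against 3700 and 2346 without the block. The block changed no call of the 10 genes other than those of Relb and Nfkbia in Treg against Tconv. Signs turned for uncalled values. Rela was at 0.061 in PD1hi against Tconv with equal totals. In PD1hi against Treg, Rel was at -0.025 without the second Treg library of experiment 3, -0.061 without PD1hi of experiment 3 and -0.18 without Treg of experiment 3. Nfkbia was at -0.094 without PD1hi of experiment 5 and -0.15 without Treg of experiment 6, where Relb was at -0.0067. Nfkbiz was at -0.030 without PD1hi of experiment 6 and -0.0068 without that library and the second Treg library of experiment 3, where Tnfaip3 was at 0.021. When 1 value was left out at a time, the highest values in that comparison were 0.38 for Rel, 0.65 for Relb, 0.19 for Nfkbia and 0.38 for Nfkbiz. The cause was not tested. Counts of called genes in the pathway lists ranged as follows over the alternatives. In PD1hi against Tconv they were 2 to 4 for the IkB and regulator list (3 as reported), 2 to 3 for the IKK list (2), 2 to 5 for the T cell receptor link (4), 1 to 2 for the alternative pathway (2) and 13 to 14 for targets (13). In PD1hi against Treg they were 1 to 3 (1), 1 (1), 3 to 4 (4), 1 to 2 (1) and 12 to 14 (13) in the same order. In Treg against Tconv they were 1 to 3 (3), 1 to 2 (1), 1 to 2 (1), 1 to 3 (1) and 7 to 12 (10).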
